A study of Mus musculus with 6 samples.

Results

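Cathepsin E and the lysosomal cathepsins were followed in liver RNA of wild-type mice and of mice without ACBP, the acyl-CoA binding protein that Dbi encodes. The 9 genes were Ctse, Ctsd, Ctsb, Ctsc, Ctsh, Ctsl, Ctss, Ctsz and Ctsa, out of 18194 gene symbols on the array. All 21 probe sets that the platform annotation assigns to them were taken, and 19 of these, with a Present call on 3 or more of the 6 arrays, entered the test. The genes were chosen by their log2 signals in these arrays, starting from the disagreement of the 2 Ctse probe sets over the genotype difference, so the genotype differences of the 9 genes are given as a description. No p-value of theirs is printed. How many passed the threshold of the fit is counted beside the share of all probe sets, and in other settings beside the count of all probe sets. Livers came from 21-day-old fed mice, ACBP-/- or wildtype, both labelled as strain C57BL/6JBomTac. Each array held equal RNA amounts from 5 mice, and 15 mice per genotype gave 3 pools each. The sources used here do not give the sex of the mice or how the deletion was made.

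Cathepsins are proteases that cells make as inactive precursors and mature in acidic compartments. Most of them work in the lysosome, where cysteine and aspartic cathepsins together degrade proteins delivered by endocytosis and autophagy, and in liver both hepatocytes and resident macrophages use them. Cathepsin E is an aspartic protease like cathepsin D, but it is mainly found in endosomes and other non-lysosomal sites, and is best known from gastric mucosa, lymphoid tissue and blood cells rather than from hepatocytes.

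Between 48.4% and 51.1% of probe sets were called Present on each array. The median linear signal of an array was 32.1 to 33.4 for wild type and 31.0 to 31.9 for knockout, without overlap. The median log2 difference of all tested probe sets was 0.02 as deposited and 0.08 after each array was centred on its median. Dbi, the targeted gene, gave log2 signals of 15.94, 15.74 and 15.77 in wild-type pools 1 to 3 and of 5.37, 5.32 and 5.15 in knockout pools 1 to 3. Knockout pool 1 stood apart at the Y-linked gene Eif2s3y, with 1.16 against 6.97 to 8.69 in the other 5 pools. The actin control probe sets gave a 3' over 5' ratio of 2.18 to 2.19 for wild-type pools and of 2.34 to 2.35 for knockout pools. The part of these differences in the values below was not tested, except that values without knockout pool 1 are given for some of the genes.

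Ctse signal was low in wild-type liver and high in knockout liver at 1 of its 2 probe sets. Probe set 1418989_at had log2 signals of 4.55, 4.70 and 4.14 in wild-type pools 1 to 3, and of 10.17, 10.28 and 10.45 in knockout pools 1 to 3. All 3 knockout pools were thus far above all 3 wild-type pools. On the log2 scale the knockout pools lay closer to each other than the dim wild-type pools did. As linear signals the wild-type pools gave 23.5, 26.0 and 17.6 and the knockout pools 1153, 1243 and 1403, and there the knockout pools lay further apart. The means were 4.46 ± 0.29 and 10.30 ± 0.14 (SD, n = 3 pools per genotype), a log2 difference of 5.84 (SE 0.13), or 57.2-fold. Without knockout pool 1 the log2 difference was 5.90. The low wild-type signal was still a detected one, since every pool was called Present, with detection p-values between 0.000732 and 0.00293 in wild-type pools. In pooled tissue RNA, more RNA per cell and more cells of a type that expresses the gene cannot be told apart.

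The second Ctse probe set did not follow the first. Probe set 1427797_s_at, whose suffix marks probes shared by more than one transcript, read 7.46, 7.05 and 7.37 in wild-type pools and 7.02, 7.24 and 7.15 in knockout pools 1 to 3, on the log2 scale. The genotypes overlapped, and all 6 pools were called Present. The means were 7.30 ± 0.21 and 7.13 ± 0.11 (SD, n = 3), a log2 difference of -0.16 with a 95% interval of the fit from -0.42 to 0.09. Both probe sets used 11 probe pairs on each array. The probes' sequences were not used here, so which transcripts each probe set reads was not examined.

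**Figure D1:**
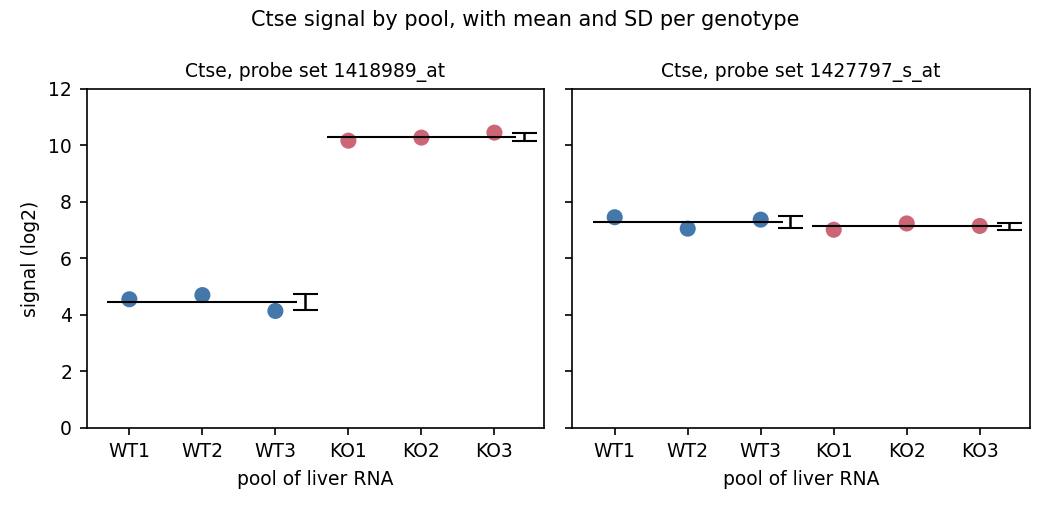
Log2 signal of the 2 Ctse probe sets (one panel each, y axis) in the 6 pools of liver RNA (x axis; wild type blue, knockout red), with the mean of each genotype as a line and its SD as a bar (n = 3). At 1418989_at the knockout pools sit between 10.17 and 10.45 and the wild-type pools between 4.14 and 4.70, while at 1427797_s_at all 6 pools lie between 7.02 and 7.46.

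The disagreement of its probe sets is what Ctse was chosen for, so its rank among other genes is a description and supports nothing. Among 4928 genes with more than 1 tested probe set, the median gap between the highest and lowest log2 fold change of a gene was 0.15. The gap of Ctse was 6.00, the second in rank after the 6.63 of Dbi. Among the lysosomal cathepsins the gap was 0.42 in Ctsb, larger than in 90.4% of the genes, 0.28 in Ctsc, 0.10 in Ctsh, 0.04 in Ctsz and 0.01 in Ctsl. Ctsd, Ctss and Ctsa had a single tested probe set each.

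No named gene lay near Ctse on a distance that counts the size of a change as well as its shape. Only 2 tested probe sets rose by 2 or more on the log2 scale, Ctse and one with no gene symbol. Large distances to all named genes thus follow from the size of the Ctse change, which chose the gene, and a smaller change of the same shape counts as far. Likeness was measured as the Euclidean distance over the 6 pools after the wild-type mean was taken off, on which scale the pattern of Ctse itself has a length of 10.12. The nearest named probe sets were those of Sult1e1, an estrogen sulfotransferase, at a distance of 6.98, Tc2n at 7.52, Orm1, an acute phase protein, at 7.63, 3110009E18Rik at 7.69 and a second probe set of Tfrc, the transferrin receptor, at 7.74. Sult1e1 read 3.85 in wild type and 5.70 in knockout on the log2 scale. A probe set with no gene symbol lay much nearer, at 1.36, with means of 1.998 in wild type and 8.38 in knockout. On the deposited values it was the only tested probe set with a larger rise than Ctse. Its wild-type mean was dimmer than the 4.46 of Ctse, and the size of a log2 rise from so dim a signal is uncertain.

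Ctse lies on chromosome 1, as does Dbi, 32 tested genes away in the order of assembly GRCm38.p6. Of the 5 tested genes on either side of Ctse, a window chosen after the data were seen, 1 rose and 1 fell, where 7.16% of all 10908 tested genes were called. Pm20d1, which makes N-acyl amino acids, rose by 0.59 (SE 0.07, adjusted p = 5.67e-05 by limma). Rab7b, a small GTPase of late endosomes and lysosomes, fell by 0.89 (SE 0.25, adjusted p = 0.0479 by limma), a call that was kept in 4 of 12 alternative settings and lost on leaving out knockout pool 2 or any 1 wild-type pool (adjusted p = 0.0773 to 0.197). With a pseudocount of 16 the fall of Rab7b was 0.49, and without the filter on Present calls another, brighter probe set stood for the gene, at -0.17 (adjusted p = 0.835 by limma). The 8 others had log2 fold changes between -0.29 and 0.29.

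Ctsd, the aspartic protease of the lysosome and the closest relative of Ctse among the 9 genes, differed between the genotypes by less than the spread of the pools. Its probe set 1448118_a_at read 10.42, 10.28 and 10.37 in wild-type pools and 10.45, 10.38 and 10.33 in knockout pools, on the log2 scale. The genotypes overlapped, and the log2 difference was 0.03 with a 95% interval from -0.12 to 0.18. A change of the size seen at 1418989_at lies far outside that interval.

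The cysteine cathepsins form the largest class. Ctsb, an endopeptidase that also trims dipeptides from the ends of proteins, had 5 probe sets that did not move alike. Its 2 bright probe sets, 1417490_at and 1448732_at, had log2 differences of 0.02 (95% interval -0.08 to 0.11) and 0.00 (-0.11 to 0.10). Probe set 1417491_at read 7.63, 7.75 and 7.82 in wild-type and 8.33, 8.10 and 8.03 in knockout pools 1 to 3. The 3 knockout pools lay above the wild-type pools, with pool 1 the highest, and the log2 difference was 0.42 (SE 0.11). Probe set 1417492_at read 8.16, 8.34 and 8.42 in wild-type and 8.71, 8.64 and 8.43 in knockout pools, where knockout pool 3 was barely above wild-type pool 3, and the log2 difference was 0.29 (SE 0.10). Without knockout pool 1 these differences were 0.33 and 0.23. The fifth probe set, 1444987_at, was called Present on 1 array and was not tested.

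Ctsz, a carboxypeptidase also called cathepsin X, had 3 probe sets that moved together by a small amount. Probe set 1417868_a_at read 11.19, 11.15 and 11.14 in wild-type and 11.42, 11.27 and 11.29 in knockout pools on the log2 scale. The log2 differences of the 3 probe sets were 0.17 (SE 0.06), 0.18 (SE 0.08) and 0.14 (SE 0.06). In each of them every knockout pool lay above every wild-type pool, and without knockout pool 1 the log2 differences were 0.12, 0.13 and 0.13. The suffixes of 1417869_s_at and 1417870_x_at mark probes that may bind other transcripts, and 3 probe sets of 1 gene are not independent of each other.

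Ctsh, an aminopeptidase, showed the same at 1 of its 2 probe sets. Probe set 1418365_at had log2 signals of 11.99 to 12.03 in wild-type pools and of 12.14 to 12.19 in knockout pools, a log2 difference of 0.15 (SE 0.05) with no overlap between the genotypes. Without knockout pool 1 that difference was 0.14. At 1443814_x_at the genotypes overlapped, with a difference of 0.05 (SE 0.07).

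For Ctsl, Ctss and Ctsc the genotypes overlapped at every tested probe set. Ctsl, a broad endopeptidase of the lysosome, had log2 differences of 0.09 (95% interval -0.01 to 0.20) at 1451310_a_at and 0.11 (-0.18 to 0.39) at 1457724_at. Ctss, which is mainly made by antigen-presenting cells and cuts the invariant chain of MHC class II, read 9.80, 9.92 and 10.13 in wild-type and 10.02, 10.20 and 9.99 in knockout pools on the log2 scale, a difference of 0.12 (-0.07 to 0.31). Ctsc, the dipeptidyl peptidase that activates serine proteases of neutrophil and lymphocyte granules, read 10.24, 10.43 and 10.54 in wild-type and 10.37, 10.25 and 10.21 in knockout pools at 1416382_at, a difference of -0.12 (-0.30 to 0.05). Its dimmer probe sets, called Present on 5 of 6 arrays each, gave 0.07 and -0.21 with wider intervals.

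Ctsa, a serine carboxypeptidase that also protects the lysosomal enzymes beta-galactosidase and neuraminidase, read 9.58, 9.64 and 9.78 in wild-type and 9.88, 9.69 and 9.71 in knockout pools at 1448128_at on the log2 scale. The genotypes overlapped, and the difference was 0.09 (95% interval -0.08 to 0.27). Its second probe set was called Absent on all 6 arrays and was not tested.

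Over the 19 tested cathepsin probe sets, 2 passed an adjusted p of 0.05 as higher in knockout, 1418989_at of Ctse and 1417491_at of Ctsb. Over all 22482 probe sets 5.68% passed, and 2.68% passed as higher, and nothing is read from the members' count because the same contrast chose them. The call of the Ctsb probe set was lost without wild-type pool 1 (log2 difference 0.37), wild-type pool 2 (0.43), knockout pool 1 (0.33) or knockout pool 2 (0.45). Without knockout pool 3 a total of 5 cathepsin probe sets passed, among 3010 probe sets in all, against 1277 in all with every pool. The knockout pools lay above the wild-type pools at 7 of the 19 and below them at 0, against 11.6% and 10.8% of all probe sets, or 22.4% in either direction. These 7 belong to Ctse, Ctsb, Ctsz and Ctsh, and probe sets of the same gene are not independent. Nothing is read from this count or from the signs that follow, since the same contrast chose the genes. Of the 17 probe sets of genes other than Ctse, 14 had a positive and 3 a negative log2 difference, with a median of 0.09 and a range from -0.21 to 0.42, and the median of all tested probe sets was 0.02.

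**Figure D2:**
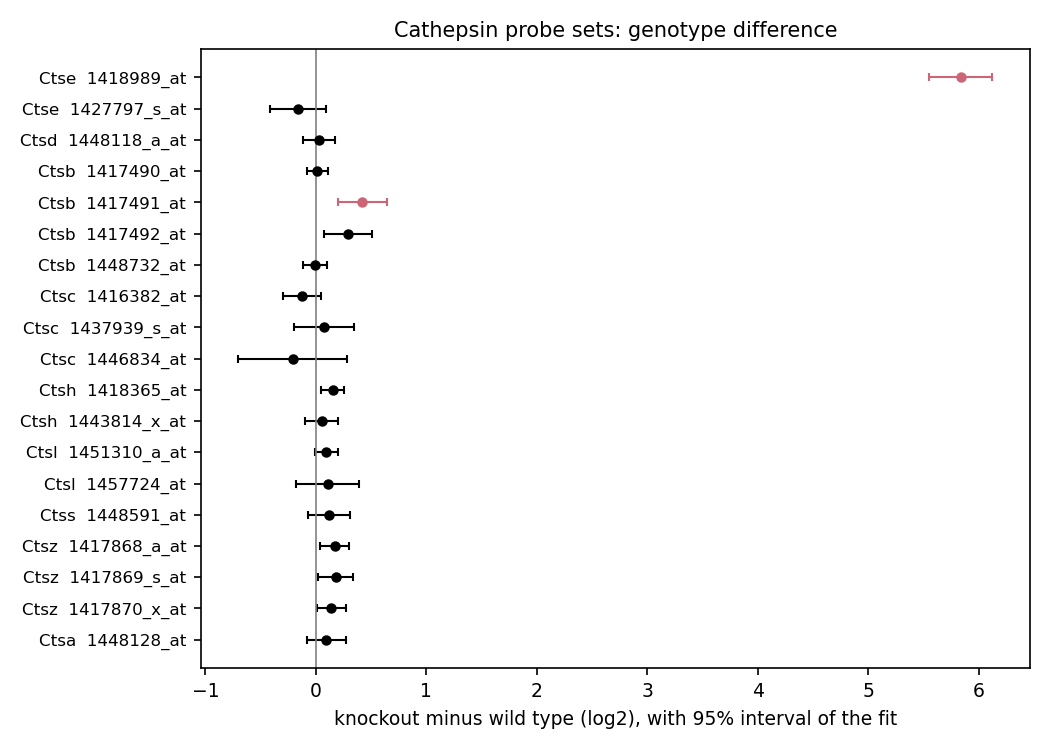
Log2 difference, knockout minus wild type (x axis), of the 19 tested cathepsin probe sets (y axis), with the 95% interval of the fit across all probe sets; red points passed an adjusted p of 0.05, as a description only. Ctse at 1418989_at stands at 5.84, and the other 18 lie between -0.21 and 0.42.

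**Figure D3:**
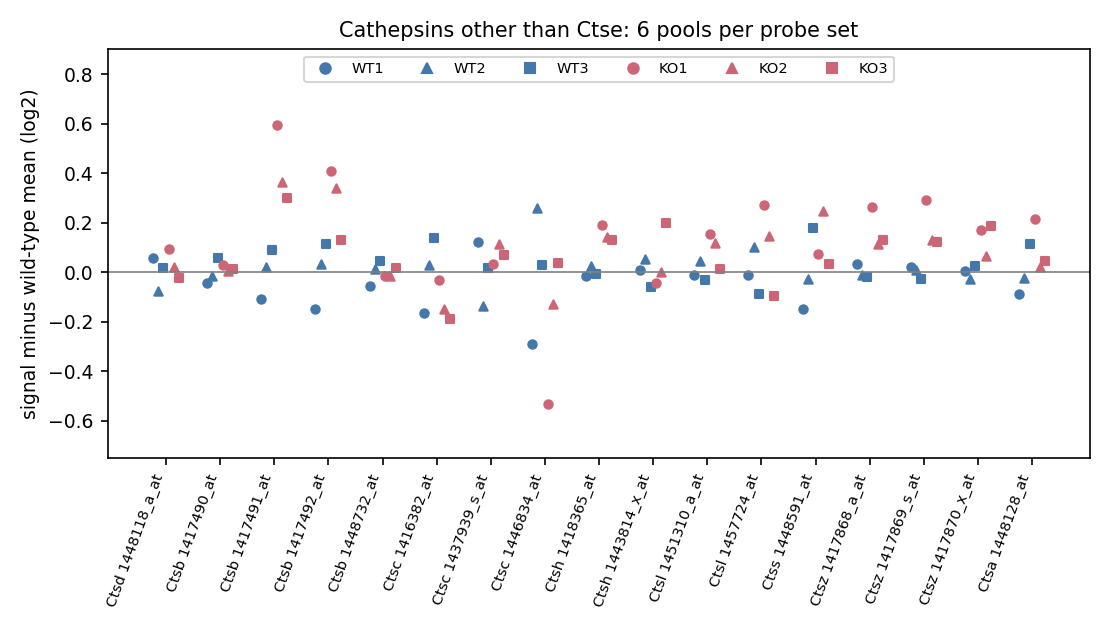
Log2 signal minus the wild-type mean (y axis) of each pool at the 17 tested probe sets of the 8 genes other than Ctse (x axis; wild type blue, knockout red, pools 1 to 3 as circle, triangle and square). The 3 red points lie above the 3 blue ones at 6 probe sets, those of Ctsz and 1418365_at, 1417491_at and 1417492_at. Knockout pool 1 is the highest at all of these except 1417870_x_at of Ctsz, where knockout pool 3 is.

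Promoter sequence was compared because many lysosomal genes carry the E-box CACGTG, which TFEB and related factors bind. Of the 9 genes, Ctsa, Ctsc, Ctsd, Ctsl, Ctss and Ctsz matched the RefSeq promoter table of GRCm38.p6, which covers 250 bases before a gene's start and a short stretch after it. These 6 genes have 7 promoters there. CACGTG, which reads the same on both strands, was found in 3 of the 7, of Ctsd, Ctsa and Ctsl, and in 7.15% of all 32851 promoters. TATAAA, searched on both strands, was found in 1 of the 7, of Ctss, and in 13.6% of all promoters. The stretches before the gene's start that hold CACGTG, shown in capitals, are printed 5' to 3' on the strand of the gene because they are what Ctsd, Ctsa and Ctsl share.
Ctsd, chr7:142388058-142388077, minus strand: tccccCACGTGacctgtatc
Ctsd, chr7:142387911-142387934, minus strand: cccgcgtctCACGTGacccgttga
Ctsa, chr2:164833752-164833772, plus strand: gcaaactgtCACGTGatgcag
Ctsl, chr13:64370742-64370765, minus strand: gttagaagcCACGTGctgatctaa
The log2 differences between genotypes of Ctsd, Ctsa and Ctsl (0.03, 0.09 and 0.09 at their brightest probe sets) lay within the range of the others, and a match of letters is not a binding site.

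The rest of the lysosomal system was described by gene lists, with 1 probe set per gene. Of 35 tested lysosomal hydrolases and activators other than the cathepsins, 1 rose and 2 fell, against 3.29% and 3.87% of all tested genes, and the median log2 fold change was 0.04, where that of all genes was 0.02. Scpep1, a serine carboxypeptidase, read 10.10, 9.93 and 10.14 in wild-type and 9.49, 9.32 and 9.12 in knockout pools on the log2 scale. It fell by 0.75 (SE 0.09, adjusted p = 6.57e-05 by limma), and its second probe set fell by 0.43 (SE 0.11). Asah1, acid ceramidase, fell by 0.52 (SE 0.08, adjusted p = 0.000393 by limma), and the falls of both genes passed in all 13 alternative settings. Dnase2a, the acid DNase that macrophages use to digest engulfed DNA, rose by 0.70 (SE 0.13, adjusted p = 0.00342 by limma), at a probe set whose suffix marks probes that may bind related transcripts, and passed in 12 of 13 alternatives, the exception being the fit without an intensity trend (adjusted p = 0.0946).

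Of 11 tested genes of lysosomal sorting and control 1 fell, and the median log2 fold change was 0.12. Sort1, the sorting receptor sortilin, fell by 0.35 (SE 0.10, adjusted p = 0.0424 by limma). That call was kept in 4 of 13 alternative settings, with adjusted p from 0.0153 to 0.231. It was lost on leaving out knockout pool 1 (0.0709), knockout pool 2 (0.181) or any 1 wild-type pool (0.0703 to 0.231). Tfeb was called Present on 1 array and was not tested.

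In the other lists 0 genes passed with limma in either direction, while 8 of 53 had an unadjusted p below 0.05, against 20.3% of all tested genes. These were 16 lysosomal membrane proteins (median log2 fold change 0.04), among them Lamp1 at 0.05 and Lamp2 at 0.17, and 15 subunits of the proton pump that acidifies lysosomes (median 0.05), among them Atp6v1e1 at 0.07 and Atp6v1f at 0.05. The 9 tested cathepsin inhibitors had a median of -0.06, with -0.05 in Ahsg and -0.07 in Kng1. The 7 tested genes of MHC class II presentation had a median of -0.14, with -0.12 in Ifi30, a lysosomal thiol reductase, and -0.04 in Cd74, the invariant chain. Of the aspartic proteases Psen2 (0.02), Bace1 (0.29) and Bace2 (-0.26) were tested.

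Of 14 further cathepsin genes, 9 were called Present on no array and 3 were tested. Their log2 differences were 0.27 (SE 0.11, adjusted p = 0.167 by limma) in Ctsf, -0.01 in Ctso and 0.11 in Ctsw. Without knockout pool 3, where 3010 probe sets passed in all, 1 of these 3, 1 aspartic protease, 1 proton pump subunit and 3 membrane proteins passed as well. With quantile normalization 1 inhibitor and 2 membrane proteins did, and with median centring 1 membrane protein.

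**Figure D4:**
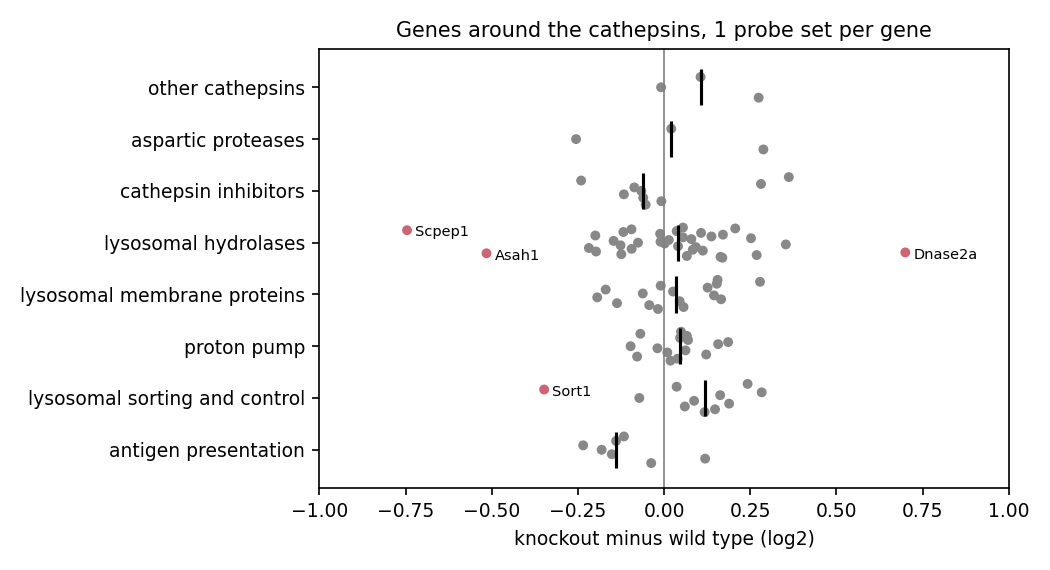
Log2 difference, knockout minus wild type (x axis), of each tested gene of 8 lists around the cathepsins (y axis), 1 probe set per gene; black bars are list medians and red points passed an adjusted p of 0.05. Scpep1, Asah1, Dnase2a and Sort1 are the named red points, and list medians lie between -0.14 and 0.12.

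Markers of cell types known for Ctse, and of other cells that liver RNA could hold, gave these values. Of 9 gastric mucosa markers on the array 6 were called Present on no array, among them Gkn1, Muc5ac and Tff2, and the summed linear signal of the 2 tested ones was 114.4 to 116.3 for wild type and 101.2 to 141.4 for knockout. Of 6 lymphocyte markers 3 were never Present, and the 2 tested ones summed to 82.3 to 110.7 for wild type and 67.6 to 79.4 for knockout. Both are B cell markers, Cd79b (log2 difference -0.36) and Ms4a1 (-0.35), and neither was called. No T cell marker was tested. The 4 tested erythroid markers summed to 1301 to 1353 for wild type and 2017 to 2494 for knockout. The higher sum in knockout is that of Tfrc, the 1 gene called, which rose by 1.24 (SE 0.09) on the log2 scale. Alas2, Slc4a1 and Epor had log2 differences of -0.24, 0.10 and -0.02 and were not called. Hba-a1 was never Present. For it and for all marker lists only probe sets with 1 symbol were counted, so any that carries several symbols was left out. Of 8 neutrophil markers 4 were tested, and Ngp (log2 difference 0.28) and Camp (-0.04) were not called. S100a9 and S100a8 rose, with log2 differences of 0.65 (SE 0.13) and 0.43 (SE 0.11), and the call of S100a8 was lost on leaving out wild-type pool 1 or 3 or knockout pool 1 or 2 (0.38 to 0.42), without the filter on Present calls (adjusted p = 0.0818 by limma) and without the intensity trend (0.110), which also ended the call of S100a9 (0.0732). Neutrophil sums were 348.4 to 391.0 for wild type and 433.9 to 514.0 for knockout, while Elane and Csf3r were never Present. The 12 macrophage markers, of which Marco fell by 0.44 (SE 0.11) and lost its call on leaving out wild-type pool 2 or 3 or knockout pool 2 (log2 differences -0.44 to -0.39), with median centring (adjusted p = 0.0583 by limma) and without the intensity trend (0.153), summed to 10054 to 11544 for wild type and 10493 to 10656 for knockout, and dendritic cell markers to 84.3 to 100.01 and 88.45 to 98.41. Of 6 pancreatic acinar markers on the array 3 were never Present and 2 were tested. One of these, the elastase gene Cela1, was lower in knockout by a log2 difference of -0.66 (SE 0.11, adjusted p = 0.00147 by limma), and passed in 12 of 13 alternatives, the exception being the fit without an intensity trend (0.0530). The other, Cela2a, was dimmer, with a wild-type mean of 5.47 on the log2 scale against 8.29 for Cela1. Its log2 difference of -0.33 was not called. Acinar sums, mostly the signal of Cela1, were 324.6 to 395.7 for wild type and 213.5 to 260.2 for knockout. The part of the marker lists that moved with genotype in the Ctse signal was not tested. Hepatocyte markers, which check the tissue label, were bright in all pools, with 0 of 7 called by limma, 1 at an unadjusted p below 0.05, and sums of 104350 to 106385 for wild type and 103470 to 107080 for knockout.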

How the data were processed

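RNA from 6 pools of mouse liver was hybridised to Affymetrix arrays. Per the submitters' processing notes the signals come from MAS5, with no version or settings in the sources used here. The deposited table gives log2 signals, detection calls (Present, Marginal, Absent), detection p-values and the authors' fold change ratio per probe set, and the deposited log2 values were used unchanged. The authors' ratio and p-values were not used for any statement. A second deposited table repeats the log2 values and was not used.

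Genes were named from the platform annotation (34958 of 45101 probe sets have 1 symbol, 932 several, 9211 none). The 64 control probe sets were dropped, and the 22482 others with a Present call on 3 or more arrays were tested. The genotypes were compared in R 4.3.3 with limma 3.58.1 (lmFit, eBayes with intensity trend) with Benjamini-Hochberg adjustment over all tested probe sets at 0.05, tested on simulated data. In lists the brightest tested probe set stood for a gene (10908 genes), with suffix _x_at last. An exact permutation test of 3 pools against 3 cannot give a p below 0.1. The number of arrays limits the precision.

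Named are all member probe sets, up to 4 called genes per list (else the 2 brightest), the 5 nearest patterns, and Dbi. Bace2, Ctsw, Tfeb, Eif2s3y, Ngp, Camp, Cd79b, Ms4a1, Epor, Cela2a and the genes beside Ctse were named after their values were seen. The members and lists were chosen with earlier results of these data known. Alternatives were no filter, Present on all 6 arrays, a pseudocount of 16, quantile normalization, median centring, no trend, the pool number as a block, each pool left out, and averaging the probe sets of a gene. Nothing says that a pool number links pools of the 2 genotypes.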

Additional observations from a re-analysis of the deposited data

How the results depend on the processing

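The 19 cathepsin fold changes were recomputed under 13 alternatives, and 239 of 245 values moved by less than 1 SD between pools, 6 by more, and 0 called values changed sign. Changing the filter, dropping the trend or using the pool number as a block leaves a fold change as it was by construction. Many of the 239 values could therefore not move, and the count says little about stability. Ctse at 1418989_at ranged from 5.06 to 5.96, which is no sign of stability, since its size in these pools chose the gene. The difference between the fold changes of its probe sets was 6.00, and 5.21 with a pseudocount of 16, which by construction shrinks changes of dim signals, and lay between 5.80 and 6.24 on leaving out a pool. Of cathepsin probe sets 2 were called. With median centring that count was 3, among 1361 probe sets called in all. It was 1 without the intensity trend, where Ctsb was lost, and 1 to 5 on leaving out a pool. The 5 came without knockout pool 3, and nothing is read from these counts. The count of all changed probe sets was 1277, against 378 without the intensity trend and 639 (without wild-type pool 1) to 3010 (without knockout pool 3) on leaving out a pool. Of all listed genes, markers included, 9 were called, against 14 with quantile normalization, 14 on averaging the probe sets of a gene, 3 without the intensity trend and 6 to 18 on leaving out a pool. The cause of these moves was not tested. Same-numbered pools did not deviate together (correlations of -0.03, -0.01 and -0.08 across probe sets, against -0.06 to 0.09 for pools of unlike number). With 3 pools per genotype a weak pairing by number would not show in these values. With the pool number as a replicate block 1370 probe sets, 2 cathepsin probe sets and 8 listed genes were called. The difference of the Ctse probe sets stayed at 6.00 by construction.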
